A study of Mus musculus with 6 samples.

Results

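A set of 10 genes that are widely used to recognise microglia, Mpeg1, C1qa, C1qb, C1qc, Ly86, Cd68, Ctss, Itgam, Csf1r and Aif1, were followed in tissue captured from the postnatal mouse brain by an ependymal reporter. They were a given list matched by platform symbol, and all 10 of 10 were found among the 19938 genes with a single-gene probe set. Expression was measured on 6 Affymetrix whole-transcript arrays of FoxJ1-EGFP brains, in which a green fluorescent reporter marks cells with Foxj1 activity and the fluorescent domains were taken by laser capture. The arrays held FoxJ1 null tissue at postnatal days 1, 7 and 14, which lacks the forkhead factor of the motile cilia programme, and wildtype tissue at the same 3 ages. There was 1 array for each combination, which gives 3 per genotype and 2 per age, and all 6 carried the reporter. The labels do not say in which cells besides ependyma the reporter is active, how many animals went into each capture, or whether captures came from separate animals. What the p-values measure is thus only how far these arrays vary, part of which may be technical. In the model of genotype and age, a gene's own error comes from how the genotype difference varies between ages. In the model with a slope it comes from departures from a straight line.

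Microglia are the resident macrophages of the brain. They derive from the embryonic yolk sac, enter the neural tissue before birth, and depend for their survival on signalling through the receptor encoded by Csf1r. In the young postnatal brain they gather along the ventricles and the growing white matter, take up dying cells and debris, and later settle into a ramified surveying state. Most of the 10 genes are shared with other macrophages, including those of the choroid plexus and the meninges, so the list marks macrophages of the brain in general. In captured tissue, more such cells and more RNA per cell cannot be told apart. Neuron genes averaged 11.12 to 11.82 on the log2 scale across the arrays, so the captures also held neuronal RNA. The layer from which the microglial RNA came is not known.

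The arrays were alike in overall level, with medians between 7.72 and 7.81 on the log2 scale. The targeted gene Foxj1 read 6.89, 6.95 and 6.90 in null tissue at days 1, 7 and 14, against 7.68, 7.72 and 7.24 in wildtype tissue, a mean difference of -0.63 ± 0.25 (SD over the 3 ages) that missed the threshold in limma (adjusted p = 0.0573). The series title names male mice, yet 2 arrays, null day 7 and wildtype day 1, had Xist at 12.35 and 12.40 and Eif2s3y, Kdm5d and Uty, which lie on the Y chromosome, at 4.53 to 5.21. On the other 4 arrays Xist lay between 5.37 and 5.83 and the Y-linked genes between 8.94 and 10.72. Both day 14 arrays had low Xist and high Y-linked genes. At days 1 and 7 the null and wildtype arrays were opposite in these genes, and in opposite order. Genotype differences at those 2 ages cannot be told apart from differences that go with Xist and the Y-linked genes. Changes with age within a genotype that start or end at the null day 7 or wildtype day 1 array have the same limit. Fits without the null day 7 and wildtype day 1 arrays are given where they bear on a result.

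At day 14 the null array held more of every one of the 10 microglia transcripts than the wildtype array, against 44.6% of all genes. It was the highest of the 6 arrays for all 10, against 16.4% of all genes. The median difference at that age was 0.77 on the log2 scale, against -0.02 over all genes, and it was 0.15 at day 7 and -0.17 at day 1. In the FoxJ1 null tissue all 10 genes had levels at day 14 that were at least 1.5-fold above day 1, against 7.87% of all genes. In wildtype tissue 2 of them did, against 5.17%. Over both genotypes, 7 of the 10 rose between days 1 and 14, against 7.5% of all genes. The change was larger in null than in wildtype tissue for all 10, against 42.1%. Of the day 1 and day 14 arrays only wildtype day 1 had high Xist, and this comparison cannot be told apart from that split. The mean difference between genotypes over the 3 ages passed the test for none of them.

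**Figure D1:**
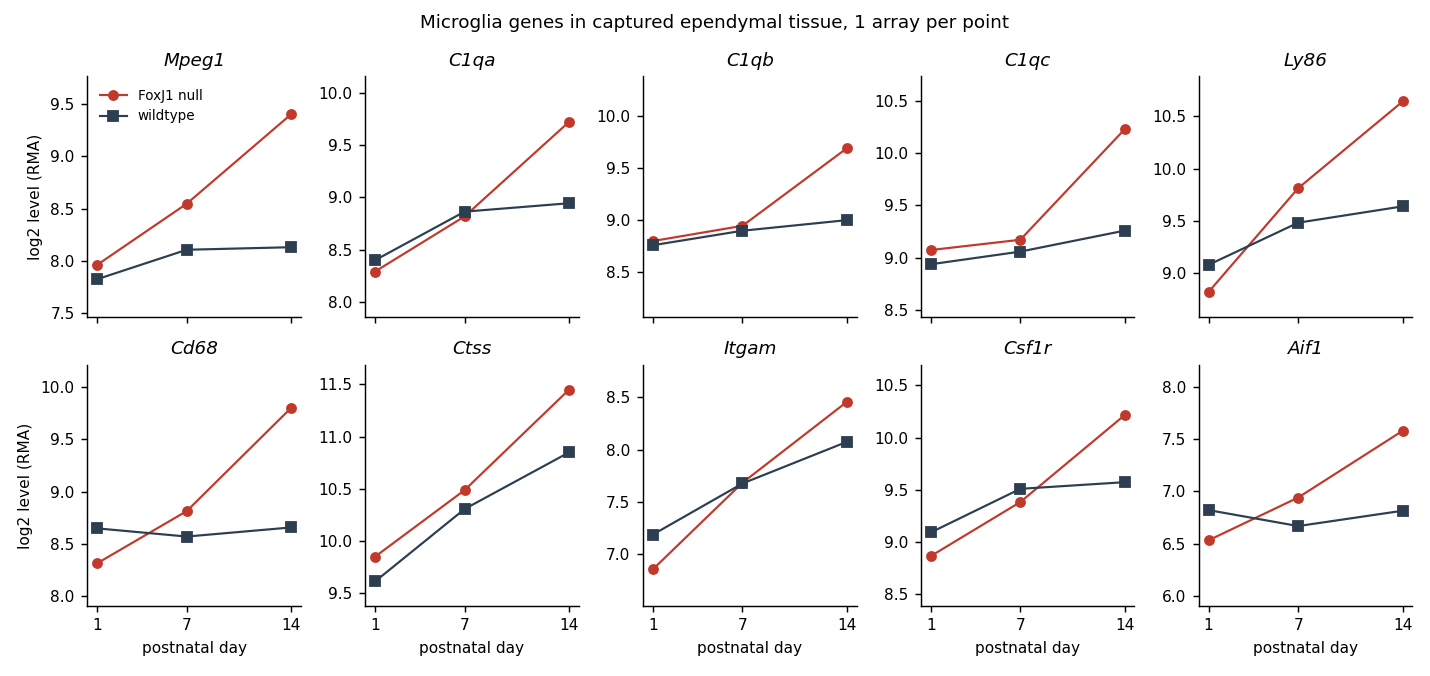
Log2 level (RMA, y axis) of each of the 10 microglia genes against postnatal day (x axis) in FoxJ1 null tissue (red circles) and wildtype tissue (dark squares). Each point is 1 array, each panel spans the same log2 range, and the null day 14 point is the highest in every panel.

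The classical complement genes C1qa, C1qb and C1qc encode the chains of C1q, the molecule with which the complement cascade recognises its targets and with which microglia tag synapses and debris. They are 3 consecutive genes on mouse chromosome 4. C1qa (probe set 10517517) read 8.29, 8.82 and 9.72 in null tissue at days 1, 7 and 14, against 8.40, 8.86 and 8.94 in wildtype tissue. C1qb (probe set 10517508) read 8.80, 8.95 and 9.69 in null tissue, and 8.76, 8.90 and 9.0 in wildtype tissue. The probe set of C1qc (10517513) gave 9.07, 9.17 and 10.23 in null tissue, and 8.94, 9.06 and 9.26 in wildtype tissue. For all 3 chains the genotypes lay within 0.14 of each other at days 1 and 7, where the 2 arrays were opposite in Xist and the Y-linked genes. At day 14, where the arrays were alike in those genes, the genotypes separated. There the null array exceeded the wildtype array by 1.72-fold for C1qa, 1.61-fold for C1qb and 1.96-fold for C1qc. Over the 6 arrays the levels of C1qb and C1qc had the highest correlation of all 45 pairs of the 10 genes (Pearson r = 0.99). The arrays share age and genotype, and this value is a description over 6 points.

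Among the 3 genes of surface receptors, Csf1r, whose product binds the growth factors Csf1 and Il34, read 8.87, 9.38 and 10.22 in null tissue at days 1, 7 and 14, against 9.09, 9.51 and 9.57 in wildtype tissue. Itgam encodes CD11b, the alpha chain of complement receptor 3, and read 6.86, 7.68 and 8.46 in null tissue, and 7.19, 7.68 and 8.08 in wildtype tissue. Ly86 encodes MD-1, the partner of the Toll-like receptor homologue Cd180, and read 8.82, 9.81 and 10.64 in null tissue, and 9.08, 9.48 and 9.64 in wildtype tissue. All 3 were lower in the null array than in the wildtype array at day 1, by -0.23, -0.33 and -0.26. At that age the wildtype array had high Xist and the null array did not. At day 14 the order was the opposite, with differences of 0.64 for Csf1r, 0.38 for Itgam and 1.00 for Ly86. Itgam had the smallest day 14 difference of the 10 genes and was the only one under 1.5-fold. Its single-gene probe set (10557862) was used, and 3 further probe sets that the platform table assigns to both Rpl35 and Itgam were left out.

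Mpeg1, Cd68 and Ctss belong to the phagosome and lysosome. Mpeg1 encodes perforin-2, a pore-forming protein of phagocytes, and read 7.96, 8.55 and 9.40 in null tissue at days 1, 7 and 14, against 7.82, 8.11 and 8.13 in wildtype tissue. Cd68, the gene of the lysosomal glycoprotein macrosialin, read 8.31, 8.81 and 9.80 in null tissue, and 8.65, 8.57 and 8.66 in wildtype tissue. For Ctss, the lysosomal protease cathepsin S, the levels were 9.85, 10.49 and 11.45 in null tissue, and 9.61, 10.31 and 10.85 in wildtype tissue. Mpeg1 and Ctss were higher in the null array at all 3 ages, as were C1qb and C1qc, which makes 4 of the 10 genes against 7.9% of all genes. The day 14 differences were 2.42-fold for Mpeg1, 2.21-fold for Cd68 and 1.52-fold for Ctss. The SD of Cd68 over the 3 ages was 0.76 in null and 0.05 in wildtype tissue.

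Aif1 encodes the actin-binding protein Iba1, the usual histological marker of microglia. It read 6.53, 6.94 and 7.58 in null tissue at days 1, 7 and 14, against 6.82, 6.67 and 6.82 in wildtype tissue. The null array was lower at day 1 and higher at days 7 and 14, where the difference reached 0.76 or 1.70-fold. Aif1 and Cd68 were the members whose wildtype level hardly differed between days 14 and 1 (-0.01 and 0.01). Aif1 and Itgam were the 2 members with a mean level (6.89 and 7.66) below the median over all genes (8.15).

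The question of whether loss of Foxj1 goes with a different amount of microglial RNA was asked first over all ages, with a limma model of genotype and age. Its error includes the spread of the genotype difference over the ages, so a difference at 1 age alone raises it. None of the 10 genes passed at an adjusted p of 0.05, where 0.672% of all genes did (134 of 19938, with 133 or 0.667% lower and 1 or 0.00502% higher in null tissue). Without adjustment 3 of the 10 had a p under 0.05, against 1180 of all genes. Those 3 were Mpeg1, with a mean difference of 0.62 ± 0.59 (SD over the 3 ages, adjusted p = 0.409), C1qc with 0.41 ± 0.49 (adjusted p = 0.775) and Ctss with 0.34 ± 0.23 (adjusted p = 0.59). Itgam (0.02 ± 0.36) and Csf1r (0.10 ± 0.48) had the means nearest to 0. All 10 means were positive with a median of 0.30, against -0.01 over all genes, but without the day 14 arrays the median was 0.01 and those of C1qa (-0.08), Cd68 (-0.05), Itgam (-0.16), Csf1r (-0.18) and Aif1 (-0.01) were negative. Without the day 1 arrays Mpeg1 passed (0.86, adjusted p = 0.0209), and without the null day 7 and wildtype day 1 arrays, with age as a linear term, none passed and the median was 0.49.

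At a single age there is 1 array per genotype, so no test was made, and genes were counted past a fold of 1.5. At day 14, 9 of the 10 microglia genes were at least 1.5-fold higher in the null array, against 0.988% of all genes, and none was lower by that much, against 1.35%. At day 7 none was past 1.5-fold in either direction, against 0.487% of all genes higher and 1.53% lower. At day 1 none was either, against 1.02% higher and 2.87% lower. At that age 4 of the 10 had a value above 0, against 55.5% of all genes, and Cd68 (-0.33) and Itgam (-0.33) were the lowest. The null day 14 array stood above every other array for all 10 genes, against 16.4% of all genes. It did so by at least 1.5-fold for 9 of the 10, against 0.316% (63 of 19938).

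**Figure D2:**
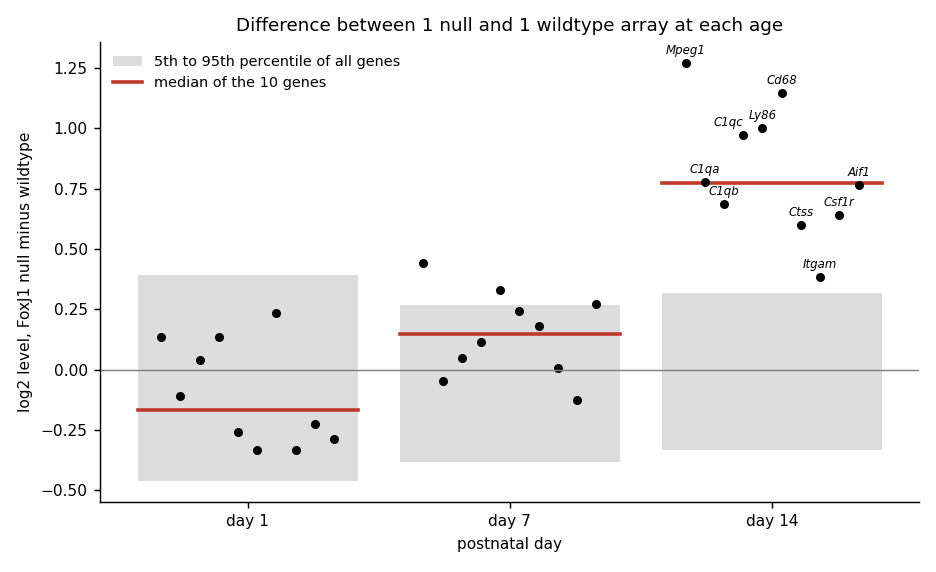
Log2 difference, FoxJ1 null minus wildtype (y axis), at each postnatal day (x axis) for the 10 microglia genes (points, in the same order within each day, named at day 14). Red lines are medians of the 10 genes (-0.17, 0.15 and 0.77), and grey boxes span the 5th to the 95th percentile of all genes, which every point exceeds at day 14.

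Whether the genotype difference moved with age was tested with the product of genotype and postnatal day. The slope difference, scaled to the 13 days of the series, was positive for all 10 genes with a median of 0.89, against -0.05 over all genes. Cd68 had the largest value, 1.48 ± 0.28 (SE), followed by Ly86 with 1.26 ± 0.29 (SE) and Mpeg1 with 1.15 ± 0.28 (SE), and Ctss had the smallest, 0.37 ± 0.28 (SE). None of the 10 passed in limma (adjusted p = 1.00 for each), and 0% of all genes did. Without adjustment 8 of the 10 had a p under 0.05, all but C1qb and Ctss, against 596 of 19938 genes. Leaving out the null day 14 array turned C1qc to -0.11 and left the other 9 positive. No fit of the slope had a term for Xist or left out both arrays with high Xist.

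Between days 1 and 14, with both genotypes in 1 model, 7 of the 10 genes rose and none fell. Over all genes 7.5% were called higher and 6.29% lower, and the median change of the 10 was 0.89 against -0.01. Ctss rose by 1.42 ± 0.14 (SE), a 2.67-fold change (limma adjusted p = 0.000345), Itgam by 1.24 ± 0.17 (2.37-fold, adjusted p = 0.00153) and Ly86 by 1.19 ± 0.24 (2.28-fold, adjusted p = 0.0103). C1qa (1.98-fold), Csf1r (1.89-fold), Mpeg1 (1.83-fold) and C1qc (1.67-fold) also rose, with adjusted p from 0.0111 to 0.0368. Cd68 (0.75 ± 0.27, adjusted p = 0.103), C1qb (0.56 ± 0.17, adjusted p = 0.0569) and Aif1 (0.52 ± 0.21, adjusted p = 0.14) did not pass. Without the null day 14 array, 3 genes were called, namely Ctss (1.22), Itgam (0.97) and Ly86 (0.71, adjusted p = 0.0485), and without the null day 1 array 4 were. Without the null day 7 and wildtype day 1 arrays, and with age linear, 9 were called. The change was larger in null than in wildtype tissue for all 10 genes, as it was for 42.1% of all genes. That comparison includes the wildtype day 1 array, the only one of its arrays with high Xist.

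In null tissue the day 14 level exceeded the day 1 level by 3.53-fold for Ly86, 3.04-fold for Itgam, 3.03-fold for Ctss and 2.80-fold for Cd68, and by at least 1.5-fold for all 10, against 7.87% of all genes. In wildtype tissue the folds were 2.35 for Ctss and 1.85 for Itgam, and these were the only 2 past 1.5-fold, against 5.17% of all genes. The remaining 8 lay between -0.01 (Aif1) and 0.56 (Ly86) on the log2 scale. Each of these is a difference between 2 single arrays. The wildtype differences start at the day 1 array with high Xist, and the null ones join arrays with low Xist. In null tissue the median from day 1 to day 7 was 0.52, with 3 genes past 1.5-fold (3.05% of all genes), and from day 7 to day 14 it was 0.84, with all 10 past 1.5-fold (4.59%). In wildtype tissue the median was 0.34 for the first step, with Ctss alone past 1.5-fold (1.38%), and 0.12 for the second, with none past it (2.62%). Both null steps and the first wildtype step join arrays that were opposite in Xist and the Y-linked genes. These steps cannot be told apart from that split.

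**Figure D3:**
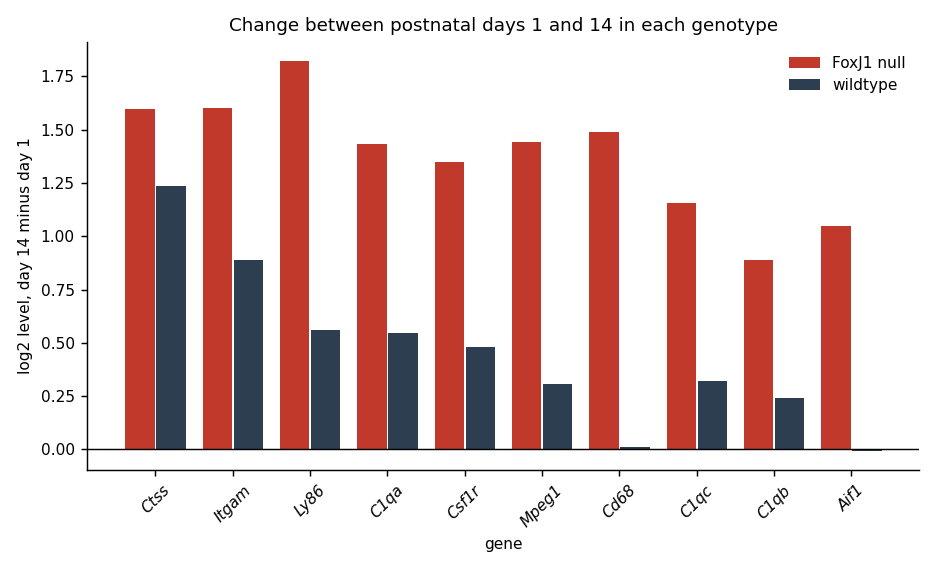
Log2 level at day 14 minus day 1 (y axis) for the 10 microglia genes (x axis, ordered by the change over both genotypes) in FoxJ1 null (red, left bar) and wildtype (dark, right bar) tissue. Each bar is a difference between 2 arrays, from 0.89 (C1qb) to 1.82 (Ly86) in null tissue and from -0.01 (Aif1) to 1.24 (Ctss) in wildtype tissue. The wildtype day 1 array had high Xist and the other arrays used here did not.

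Tested stepwise in limma, none of the 10 passed between days 1 and 7 (0.0602% of all genes did). All 10 values were positive, against 39.7% of all genes, with a median of 0.45 against -0.04. Without adjustment 5 had a p under 0.05, against 2110 of 19938 genes. Ctss (0.67 ± 0.14 SE, adjusted p = 0.161) and Itgam (0.66 ± 0.17 SE, adjusted p = 0.227) were the closest. Between days 7 and 14 Ctss rose by 0.75 ± 0.14 (SE, adjusted p = 0.0197) and the other 9 did not pass, where 2.34% of all genes were called higher. Without the null day 14 or the null day 7 array none passed the second step, and without the wildtype day 14 array all 10 did.

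Promoter sequences are shown for 3 of the genes because they hold words recognised by factors of the macrophage lineage. RefSeq windows of build GRCm38.p6, from 250 bases before to 50 bases after the annotated start, were matched for 8 of the 10 genes. The 3 motifs searched on both strands were GAGGAAGT, bound by PU.1 (the product of Spi1), the interferon response element, and CACGTG, the E-box of lysosomal gene regulators. The PU.1 word was found in Ctss and C1qc (2 of 8 windows, against 3.2% of 32851 promoters), the interferon response element in Ctss and Aif1 (2 of 8, against 3.44%), and the E-box in none of the 8 (7.15%). Capitals mark the matches, which read as ACTTCCTC where the PU.1 word lies on the opposite strand. The windows run 5′ to 3′ on the strand of the gene, at chr3:95526536-95526835 (plus strand) for Ctss, chr4:136892865-136893164 (minus strand) for C1qc and chr17:35176003-35176302 (minus strand) for Aif1.
Ctss: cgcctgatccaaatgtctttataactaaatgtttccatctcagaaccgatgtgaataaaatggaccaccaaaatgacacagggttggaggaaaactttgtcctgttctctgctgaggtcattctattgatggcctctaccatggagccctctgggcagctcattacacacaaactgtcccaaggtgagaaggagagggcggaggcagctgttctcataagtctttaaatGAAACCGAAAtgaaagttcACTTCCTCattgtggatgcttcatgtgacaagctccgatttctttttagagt
C1qc: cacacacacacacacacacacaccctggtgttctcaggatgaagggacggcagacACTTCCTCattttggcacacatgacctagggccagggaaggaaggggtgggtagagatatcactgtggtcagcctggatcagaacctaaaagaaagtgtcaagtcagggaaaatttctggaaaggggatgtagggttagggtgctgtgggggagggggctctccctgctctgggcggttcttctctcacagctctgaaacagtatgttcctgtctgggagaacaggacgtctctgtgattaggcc
Aif1: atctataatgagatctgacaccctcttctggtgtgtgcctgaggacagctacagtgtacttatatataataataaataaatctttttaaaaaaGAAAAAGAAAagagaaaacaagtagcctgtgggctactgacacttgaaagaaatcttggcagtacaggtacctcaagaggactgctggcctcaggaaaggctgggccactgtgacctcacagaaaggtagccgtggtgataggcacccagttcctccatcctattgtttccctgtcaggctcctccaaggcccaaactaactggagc
In Ctss, the gene with the smallest p for the rise, the interferon response element began at base -21 and the PU.1 word at base -2 from the annotated start. In C1qc the PU.1 word began at base -195, and in Aif1 the element began at base -157. A match is a description of these letters, and binding was not measured. Spi1 itself, the gene of PU.1, read 6.30, 6.71 and 7.02 in null tissue at days 1, 7 and 14, against 6.58, 6.65 and 6.63 in wildtype tissue, and its change between days 1 and 14 did not pass (0.39, adjusted p = 0.152).

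The levels of the 10 genes were correlated over the 6 arrays, and each was highest on the null day 14 array. Pairwise Pearson r ran from 0.78 (Mpeg1 with Itgam) to 0.99, with a median of 0.92. Averaged over the 10 genes, each centred on its own mean, the profile stood at -0.49, 0.03 and 0.89 in null tissue at days 1, 7 and 14, against -0.39, -0.11 and 0.07 in wildtype tissue. In wildtype tissue the change from day 1 to day 14 ran from -0.01 (Aif1) to 1.24 (Ctss). How far r rests on the null day 14 array was not tested. Among 1731 genes outside the list with a level above the median and an SD of at least 0.3, 53 had r of at least 0.9 with the averaged profile. The 12 most like it had r from 0.95 to 0.99. They were Unc93b1, which carries endosomal Toll-like receptors, Srgn, Cd53 and Nckap1l of haematopoietic cells, the lysosomal glucuronidase Gusb, Pon2, Chst1, Wfs1, the astrocyte filament gene Gfap, and Rasd2, Rgs9 and Gpr52, which are expressed in the striatum. Gfap read 7.77, 9.55 and 11.02 on the null arrays, and 8.48, 9.24 and 9.75 on the wildtype arrays.

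Other genes of microglia were examined as lists, beginning with genes of the homeostatic state. Of 18 listed, 16 were measured. Between the genotypes none passed, as for every macrophage list described here. Between days 1 and 14, 8 of the 16 rose, and the rest did not pass (list median 0.54). Over all genes 7.5% rose between these ages and 6.29% fell, which is the share to set beside this and the following lists. The purinergic receptor P2ry13 (1.13, adjusted p = 0.00239), Gpr34 (1.08, adjusted p = 0.00219), the fractalkine receptor Cx3cr1 (1.08, adjusted p = 0.00191) and Selplg (1.01, adjusted p = 0.001) rose most. At day 14 the median difference between null and wildtype was 0.35, and 2 of the 16 were at least 1.5-fold higher in the null array, against 0.988% of all genes. Tmem119, a marker of mature microglia, read 8.03 in the null and 8.01 in the wildtype array at that age, and P2ry12 read 8.10 and 7.65 in the same order.

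Of 30 listed genes of macrophage signalling and transcription, 27 were measured, 7 rose between days 1 and 14 and 1 fell (Tgfbr1). Mertk, an engulfment receptor, rose by 1.42 (adjusted p = 0.000423), Il34, a ligand of the Csf1 receptor made by neurons, by 1.38 (adjusted p = 0.00076), Cd53 by 1.24 (adjusted p = 0.00181) and the inhibitory Fc receptor Fcgr2b by 0.81 (adjusted p = 0.0313). At day 14, 26 of the 27 were higher in the null than in the wildtype array (median 0.31), against 44.6% of all genes. Past 1.5-fold were 5, against 0.988% of all genes, among them Laptm5 (1.09), Fcgr2b (0.80) and Tyrobp (0.62). Only Mertk was lower (-0.14). Of the 27, 19 had a mean level below the median over all genes.

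Complement genes other than C1q were measured for 13 of 17. C4b (1.22, adjusted p = 0.0111) and Cd59a (1.16, adjusted p = 0.00868) rose between days 1 and 14, and the other 11 did not pass. At day 14, 5 of the 13 were at least 1.5-fold higher in the null array, against 0.988% of all genes. They were led by the C3a receptor C3ar1, which read 7.64, 8.33 and 8.98 in null tissue of days 1, 7 and 14, and 8.01, 8.08 and 7.55 in wildtype tissue. Serping1, the C1 inhibitor, differed by 1.40 at day 14 and C4b by 1.14. The list named endotoxin receptor genes also held Toll-like receptors that do not bind endotoxin, Tlr7 among them. Of its 14 genes 13 were measured, all with a mean level below the median over all genes, and 3 rose. These were Tlr7 (0.97, adjusted p = 0.00408), Cd180 (0.72, adjusted p = 0.0411), whose product pairs with that of Ly86, and Ly96 (0.62, adjusted p = 0.0311). Lysosomal genes, 20 of 22 measured, had 7 that rose, among them Hexa (0.82, adjusted p = 0.0232), Ctsd (0.73, adjusted p = 0.0118) and Grn (0.69, adjusted p = 0.0233). At day 14, 18 of those 20 were higher in the null array with a median of 0.27, Cst3 (-0.74) and Psap (-0.58) being the exceptions. Over all genes 44.6% were higher there.

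Genes of amoeboid and disease-associated microglia were uneven. Of 15 measured, 2 rose between days 1 and 14 (Cd9 by 0.71 and Apoe by 0.60) and 2 fell (Lpl by 0.84 and Fabp5 by 0.66). Gpnmb, a glycoprotein of lipid-laden phagocytes, read 7.08, 6.89 and 9.50 in null tissue at days 1, 7 and 14, against 7.22, 6.91 and 7.48 in wildtype tissue. The chemokine Ccl3 read 7.29, 7.89 and 9.26 in null tissue, and 7.33, 7.57 and 7.23 in wildtype tissue. Their day 14 differences were 4.04-fold and 4.08-fold, larger than that of any of the 10 genes, and neither passed over all ages (adjusted p = 0.969 and 0.775). The list median at day 14 was 0.26, and Apoe had a value of -0.67. Class II antigen presentation genes had a day 14 median of -0.02, with 6 of 7 measured and none called in either comparison.

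**Figure D4:**
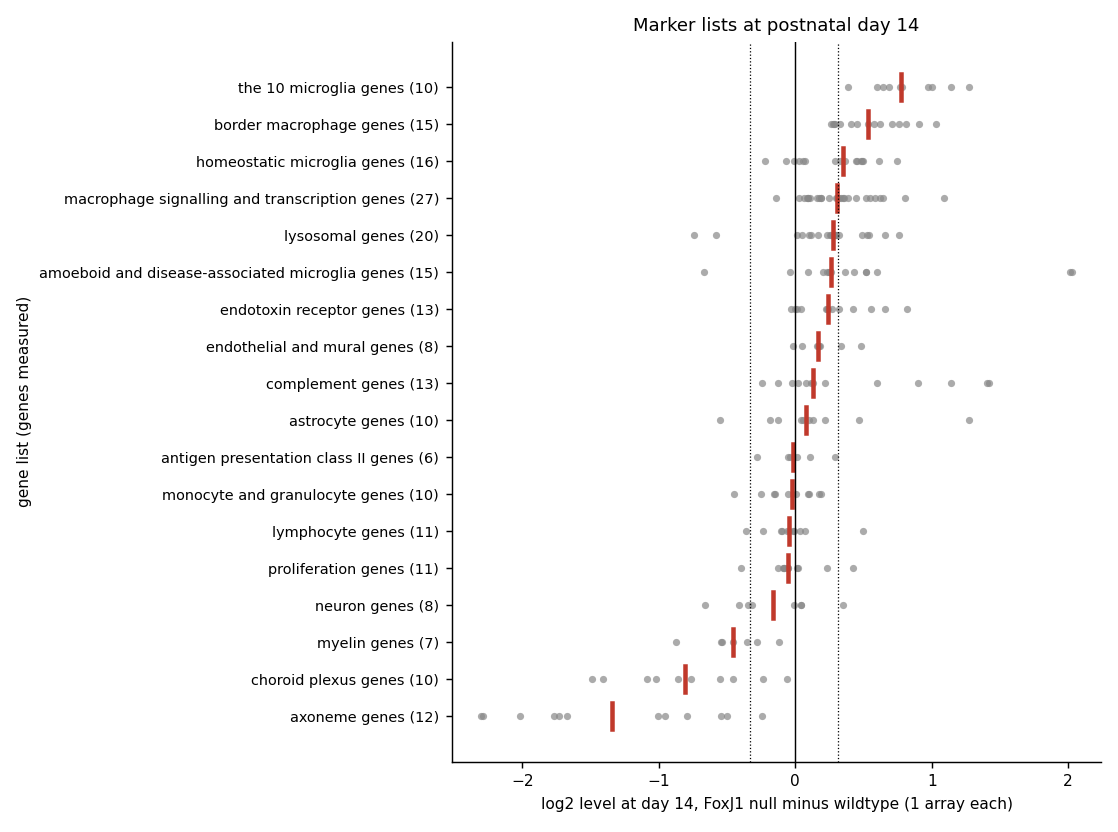
Log2 level at day 14, FoxJ1 null minus wildtype (x axis, 1 array each), for every measured gene (grey points) of 18 lists (y axis, number measured in brackets), with the list median in red and the 5th and 95th percentiles of all genes dotted. The 10 microglia genes had the highest median (0.77) and axoneme genes the lowest (-1.34).

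Markers of other cells that a capture could hold moved with the microglia genes in part. Border macrophage genes were higher in the null day 14 array for 15 of 15 members (median 0.53), against 44.6% of all genes, with Mrc1 at 1.03 and Stab1 at 0.91. Their summed level, given as log2 of the sum of linear levels, ran from 11.05 to 11.67 on the null arrays and from 11.06 to 11.49 on the wildtype arrays. The null day 14 array was the highest for 10 of the 15, against 16.4% of all genes. The mannose receptor gene Mrc1 read 7.81, 8.51 and 8.44 in null tissue at days 1, 7 and 14, against 8.23, 8.39 and 7.41 in wildtype tissue. Its day 14 difference thus went with a low wildtype level at that age. Over the ages 0 of the 15 rose and 2 fell, the chemokine Pf4 by 0.80 and Cd36 by 0.46. Of the 15 border macrophage genes, 13 had a mean level below the median over all genes. Monocyte and granulocyte genes had a day 14 median of -0.02 over 10 members, all of them below the median level of all genes, and Ccr2 lay between 4.70 and 4.88 on all arrays. Lymphocyte genes had a median of -0.05 over 11 members. The sum for the 10 microglia genes was 11.94, 12.47 and 13.37 in null tissue at days 1, 7 and 14, against 11.97, 12.33 and 12.57 in wildtype tissue.

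Some neuronal and glial genes also differed between the 2 day 14 arrays. A list of 19 striatal projection neuron genes was added after the data were seen. Of its 17 measured members 16 were higher in the null day 14 array, 9 of them by at least 1.5-fold (median 0.63, against -0.15 at day 7 and 0.27 at day 1). The shares over all genes were 44.6% and 0.988%. The sodium channel subunit Scn4b (1.30), Rasd2 (1.22) and Ppp1r1b (1.09), the gene of the dopamine-regulated phosphatase inhibitor DARPP-32, differed most, and the list sum ran from 13.95 to 14.77 in null tissue and from 14.00 to 14.33 in wildtype tissue. Astrocyte genes had a day 14 median of 0.08 with Gfap at 1.27, general neuron genes -0.17, myelin genes -0.46 and choroid plexus genes -0.81. Endothelial and mural genes had a median of 0.17, with 7 of 8 positive, against 44.6% of all genes. The summed levels in null and wildtype tissue ran from 13.84 to 14.79 and 14.14 to 14.89 for astrocyte genes, 14.47 to 14.85 and 14.66 to 15.14 for neuron genes, 10.85 to 13.88 and 10.99 to 14.35 for myelin genes, and 13.28 to 13.55 and 14.61 to 14.65 for choroid plexus genes. The part of border macrophages, of striatal genes and of Gfap in the day 14 difference of the microglia genes was not tested. Proliferation genes fell between days 1 and 14 in 11 of 11 cases.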

How the data were processed

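Laser-captured FoxJ1-EGFP tissue was measured on 6 arrays, 1 per genotype and age. The values used were log2 levels that the authors deposited for 35557 probe sets, produced with RMA according to the submitters' processing notes; its software and version are not given in the sources used here. Per the labels' protocols, Trizol was used for RNA extraction, and cRNA was amplified before single-stranded cDNA was labelled. A second table deposited by the authors holds linear intensity for 52 chosen probe sets; only its probe set identifiers were used, and 0 of the 10 microglia genes were in it.

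The platform table gave 21789 probe sets 1 symbol, 1621 several and 12147 none. Names were checked through the RefSeq table of GRCm38.p6, which held 21698 of the single-symbol probe sets and changed 0 symbols. The brightest single-gene probe set by mean level stood for each of 19938 genes, with no filter; each of the 10 genes had 1. Tests were 2-sided in limma 3.58.1 (R 4.3.3): lmFit and eBayes with genotype and age as a factor (2 residual degrees of freedom, 7.51 prior), or with genotype, day and their product, adjusted by Benjamini-Hochberg over all genes at 0.05. The fitting code was tested on data with known answers. The number of arrays limits the precision.

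Figures used matplotlib 3.10.9. The members, lists, tests and alternatives were chosen with earlier results of these data known. Named genes were the 10 members, up to 4 per list with the largest age or genotype difference, and the 12 genes most like the members' mean profile; other list members named for a day 14 value, Tmem119, Spi1, Mrc1 and Ccr2 among them, and the striatal list were chosen after values were seen. Alternatives were renormalization, filters, probe set rules, eBayes priors, terms for Xist, age or genotype, and left-out arrays.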

Additional observations from a re-analysis of the deposited data

How the results depend on the processing

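The count of microglia genes called between the genotypes was 0 in all settings that kept every array. It ran from 0 to 1 when arrays were left out, Mpeg1 being called without the day 1 arrays. Leaving out 1 array of an age gave the same genotype difference as leaving out both, because age was a factor. Those fits are not separate alternatives. Between days 14 and 1 the count of 7 ran from 3 (without the null day 14 array) to 10 (without the wildtype day 1 or the wildtype day 14 array) over left-out single arrays, was 9 without the null day 7 and wildtype day 1 arrays, and ran from 5 to 8 over the settings that kept every array; Ctss, Itgam and Ly86 were called in every setting that tested them, Itgam being left out with the genes below the median level. Between days 7 and 1 the count of 0 ran to 3 without either day 14 array. Between days 14 and 7 the count of 1 was 2 without genes below the median level, 0 with Xist as a covariate, 0 with genotype left out, and 0 to 10 over left-out arrays. For the slopes it was 0 in all settings. The direction of single genes turned only where arrays were left out. For the genotype difference the values then ran from -0.077 to 0.37 for C1qa, -0.0453 to 0.69 for Cd68, -0.16 to 0.19 for Itgam, -0.18 to 0.26 for Csf1r and -0.00789 to 0.52 for Aif1. For days 7 against 1 they ran from -0.0216 to 0.31 for C1qb, -0.11 to 0.33 for C1qc, -0.30 to 0.72 for Cd68 and -0.28 to 0.53 for Aif1, for days 14 against 7 from -0.0514 to 0.93 for Mpeg1 and -0.0572 to 1.13 for Cd68, and for the slope of C1qc from -0.11 to 1.64. Fits that lacked an array left a genotype and age with no array, and its level was taken from the additive model. The genotypes were paired by age in the model itself, through the age term, and no block by replicate number could be added because the labels give none. With 1 array per genotype and age, the day 14 difference had no replicate.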

Other observations

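Of the 63 genes whose null day 14 level stood at least 1.5-fold above every other array, 9 were microglia genes described above, 14 belonged to the other lists fixed for comparison and 40 to none of these lists, 7 of them striatal projection neuron genes. Among those 40, genes chosen after their values were seen include further immune genes, namely the lectin Clec12a (day 14 difference of null minus wildtype 1.14), Pld4 (1.19), the sialic acid receptor Cd33 (0.68) and the chemokine Cxcl5 (1.24). The oncostatin M receptor Osmr (1.17) and the resistin-like gene Retnla (1.70) were also among them. Retnla, Clec12a and Cxcl5 had low levels, from 4.59 to 6.97 across the arrays, where the median gene had a mean level of 8.15. The immediate early genes Egr1 (0.73) and Nr4a1 (0.71) and the clock-controlled genes Nr1d1 (0.70) and Dbp (0.63) were in the same set. Gpnmb stood farthest above the next array, by 2.02.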
